A study of Xenopus laevis with 72 samples.

Results

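The transcripts of 4 T-box genes of mesoderm and endoderm, vegt, eomes, tbxt and tbx6, were followed through early Xenopus laevis development. Members were all table entries whose name, without the ending .L or .S, was one of these 4 symbols. They came to 8 of 39668 entries, because the species is allotetraploid and each gene has a homeolog on the L and on the S subgenome. Groups were wild-type embryos injected at the 1-cell stage with 9.2 nl of a 1 mM translation-blocking morpholino (an antisense oligomer that keeps a transcript from being translated) that targets cxxc1 (Cxxc1 MO) or one that targets kmt2b (Kmt2b MO), embryos that received a control morpholino (Ctrl MO), and embryos without injection (NI Ctrl). Whole embryos were collected at 5.5, 6.5 and 7.5 hours post fertilization (hpf), with 3 sets of 3 embryos each time for every group, in 2 biological replicates that came from different frogs (frog 1 and frog 2 for short). This gave 72 libraries of ribosomal RNA-depleted total RNA, 36 per frog. Values are TPM, transcript amounts divided by transcript length and scaled to a fixed total in each library. Sets of 1 frog are not independent animals, so p-values within a frog measure the spread between sets. Those over both frogs rest mainly on that spread as well, and with 2 frogs they do not measure the spread between animals. The term pooled fit stands for a limma fit of both frogs with the frog as a covariate, with p-values adjusted by the Benjamini-Hochberg method over all tested entries, and an entry was called at an adjusted p under 0.05.

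T-box genes encode transcription factors that share a DNA-binding domain and act early in germ layer formation. In Xenopus, vegt mRNA is laid down in the oocyte and lies at the vegetal pole, where its protein starts endoderm formation and switches on Nodal ligands that induce mesoderm. Eomes (eomesodermin) and tbxt (brachyury) are zygotic genes that respond to these signals in the prospective mesoderm and endoderm, and tbx6 acts later, in posterior and ventral mesoderm. Kmt2b is a histone H3 methyltransferase, and Cxxc1 is a subunit of related complexes that binds unmethylated CpG DNA. The comparisons ask how the amounts of maternal and of newly made T-box transcripts changed over time and in embryos injected against these chromatin factors.

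The 2 vegt entries were the only members with high TPM at 5.5 hpf, whereas eomes was near 0 at 5.5 hpf and had risen in every group by 7.5 hpf. The entry tbxt.S was at 0.803 to 2.54 TPM at 5.5 hpf and was called higher by 7.5 hpf in 3 of 4 groups of frog 2 (not in Kmt2b MO) but in no group of frog 1, while tbxt.L and both tbx6 entries stayed near or below 1 TPM. At 7.5 hpf both eomes homeologs were lower in Kmt2b MO than in Ctrl MO embryos, and eomes.S was called lower in Cxxc1 MO embryos, a call that some alternative fits did not keep. Entries entered the test across genes when they averaged 1 TPM or more across the 36 libraries of a frog, in each frog. Of the 8 members, 5 met it (vegt.L, vegt.S, eomes.L, eomes.S and tbxt.S), among 19544 entries tested in both tables. The other 3 had means of 0.344 and 0.430 TPM (tbxt.L), 0.205 and 0.303 TPM (tbx6.L) and 0.0820 and 0.0564 TPM (tbx6.S) in frogs 1 and 2.

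In the genome assembly Xenopus_laevis_v10.1, vegt.L lies on chromosome 1L at 165668378 to 165681371 and vegt.S on chromosome 1S at 141991013 to 142004151. The eomes genes lie on 6L at 50107186 to 50113196 and on 6S at 40890399 to 40896123. The tbxt genes lie on 5L at 57442347 to 57449535 and on 5S at 46833750 to 46841009. The tbx6 genes lie on 9_10L at 135363099 to 135370718 and on 9_10S at 115259657 to 115276102. All 8 are annotated as protein-coding, and each value refers to the whole gene, since isoforms had been summed. For vegt this merges a maternal and a zygotic isoform in 1 value. Homeologs share much of their sequence, so the split of reads between L and S is uncertain.

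**Figure D1:**
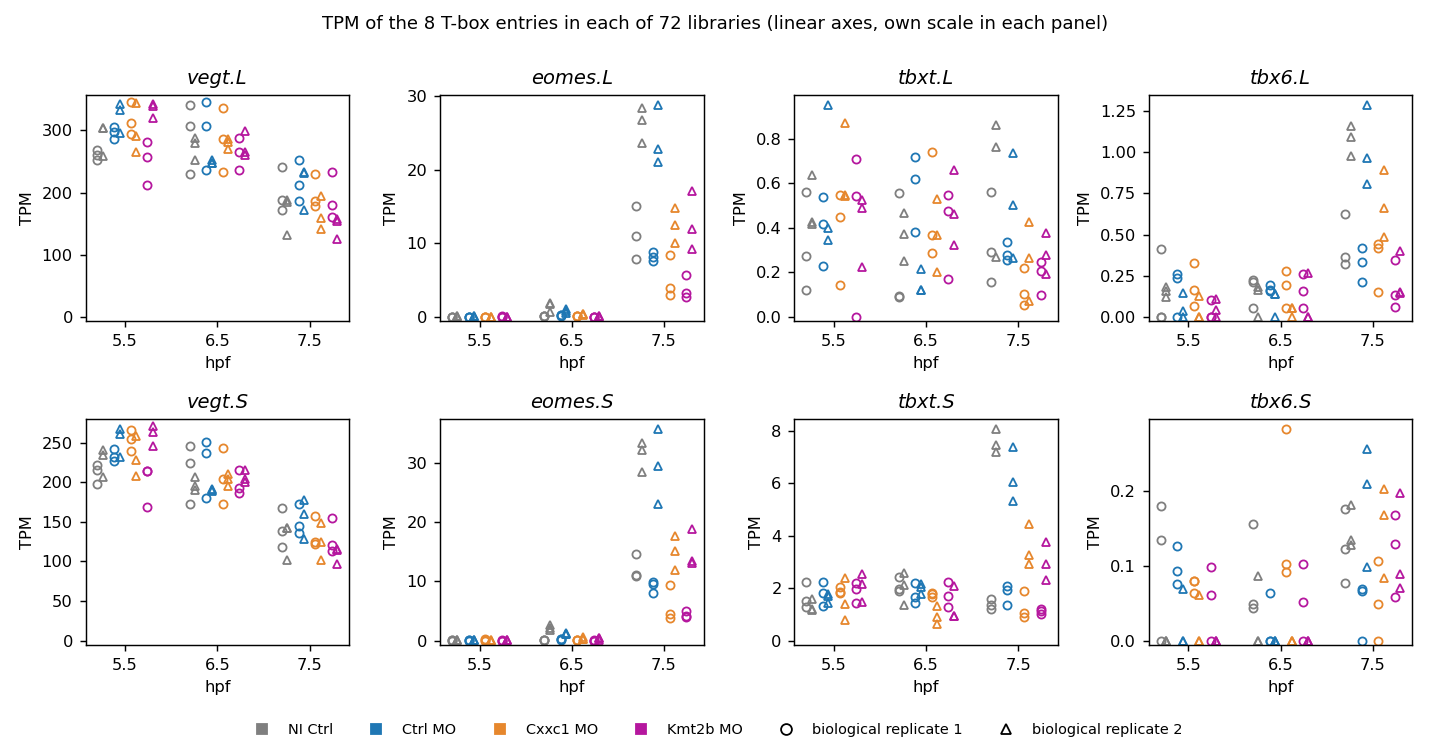
TPM of the 8 members (1 panel each) in every library against time (hpf), with colours for the 4 groups and symbols for the 2 frogs (biological replicates). Both vegt entries are highest at 5.5 and 6.5 hpf, eomes.L and eomes.S leave the baseline at 7.5 hpf, and tbxt.S does so only in frog 2.

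The vegt entries, which merge a maternal and a zygotic isoform, were abundant at every time point. Over the 24 libraries of a time point, vegt.L was at 212 to 346 TPM at 5.5 hpf (median 296), 230 to 346 TPM at 6.5 hpf (median 275) and 125 to 252 TPM at 7.5 hpf (median 185). The entry vegt.S ran somewhat lower, at 169 to 271 TPM (median 233), 172 to 251 TPM (median 202) and 96.6 to 177 TPM (median 132). In Ctrl MO embryos of frog 1, vegt.L was at 297, 305 and 287 TPM at 5.5 hpf and at 252, 186 and 213 TPM at 7.5 hpf. In those of frog 2 it was at 295, 342 and 333 TPM and then at 232, 172 and 234 TPM. For each frog the 3 later values lay below the 3 earlier ones, a direction that most tested entries shared, as given below. The share of vegt TPM that came from the L homeolog was 55.6% at 5.5 hpf and 59.2% at 7.5 hpf in frog 1, and 56.2% and 57.1% in frog 2.

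Between 5.5 and 7.5 hpf, vegt.L fell by 0.54 and vegt.S by 0.67 on the log2(TPM + 1) scale in Ctrl MO embryos in the pooled fit. It gave falls by 0.59 and 0.71 in NI Ctrl, by 0.78 and 0.91 in Cxxc1 MO and by 0.79 and 0.94 in Kmt2b MO embryos, and all 8 changes were called. TPM is a share of the library, and over the same interval 78.2% of all tested entries were called lower in Ctrl MO, 77.7% in NI Ctrl, 78.2% in Kmt2b MO and 79.3% in Cxxc1 MO embryos. In Ctrl MO these were 15280 lower entries beside 2784 higher ones, and 10090 lower beside 5036 higher once each library was centred on its median entry. The median tested entry changed by -0.91 there, -0.92 in NI Ctrl, -0.91 in Kmt2b MO and -0.97 in Cxxc1 MO embryos. The vegt entries therefore fell by less than the median entry in every group, except vegt.S in Kmt2b MO embryos, and the direction depended on the scaling. With each library centred on its median entry, vegt.L changed by 0.19 in Ctrl MO, 0.13 in NI Ctrl, 0.017 in Cxxc1 MO and by -0.060 in embryos given Kmt2b MO, where the sign of the fall was kept without a call. For vegt.S these values were 0.052, 0.016, -0.11 and -0.20, of which the fall in Kmt2b MO was still called. The share of TPM in protein-coding entries moved as well, from a median of 75.6% at 5.5 hpf to 66.4% at 7.5 hpf in frog 1 and from 85.1% to 53.6% in frog 2, and its part in these changes was not tested. In whole embryos, fewer cells of a type and less RNA per cell cannot be told apart.

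Other maternal mRNAs of the vegetal region gave the setting for these values. Of 22 listed entries (among them plin2, nanos1 and dnd1), 18 were tested, of which 16 were called lower and 1 higher from 5.5 to 7.5 hpf in Ctrl MO embryos, beside 78.2% lower and 14.2% higher over all tested entries, with a median change of -0.98 beside -0.91. In Kmt2b MO embryos 17 of the 18 were lower and none higher, beside 78.2% and 13.6%, with a median of -1.17. Against Ctrl MO at 7.5 hpf, 0 of the 18 were called in either knockdown by limma. Over all tested entries 0.235% were called lower and 0.302% higher in Cxxc1 MO, and 0.752% and 1.03% in Kmt2b MO, so calls among 18 entries would be rare in any case. The median log2 fold changes of the 18 were -0.05 (Cxxc1 MO) and -0.10 (Kmt2b MO).

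The pooled fit of 1 time point made no call for vegt in the knockdowns. At 7.5 hpf in frog 1, vegt.L was at 186, 229 and 179 TPM in Cxxc1 MO and at 161, 181 and 232 TPM in Kmt2b MO embryos, which overlapped the Ctrl MO sets. In frog 2 it was at 158, 141 and 194 TPM in Cxxc1 MO and at 155, 125 and 158 TPM in Kmt2b MO embryos. The latter 3 lay below every Ctrl MO set of that frog, but the NI Ctrl sets, at 132, 185 and 188 TPM, overlapped them. The pooled fit gave a log2 fold change of vegt.L against Ctrl MO of -0.25 (95% interval -0.51 to 0.01, limma adjusted p = 0.796) for Cxxc1 MO and -0.36 (-0.62 to -0.10, adjusted p = 0.211) for Kmt2b MO. For vegt.S these were -0.24 (-0.49 to 0.01, adjusted p = 0.759) and -0.36 (-0.61 to -0.11, adjusted p = 0.164). Exact permutation gave p = 0.035 (vegt.L) and 0.025 (vegt.S) for Kmt2b MO and 0.09 and 0.08 for Cxxc1 MO, unadjusted, with 5 of 6 sets below the Ctrl MO mean in each. For Kmt2b MO both homeologs passed the limma threshold at -0.36 in a fit of all time points (adjusted p = 0.0401 and 0.0230) and at -0.32 with TPM rescaled to protein-coding entries (adjusted p = 0.0482 and 0.0275), and vegt.S did so with centred libraries (-0.37, adjusted p = 0.0246). These 3 settings each raised the number of all tested entries called as well (counts are given under the dependence on processing), so such calls are not particular to vegt. Against NI Ctrl, Kmt2b MO embryos differed by only -0.13 (vegt.L) and -0.18 (vegt.S), neither called.

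Eomes was close to absent at the start and rose late. At 5.5 hpf, eomes.L was listed at 0 in 19 of 24 libraries and reached at most 0.0834 TPM, and eomes.S reached at most 0.213 TPM and was listed at 0 in 6. At 6.5 hpf in frog 1, no Ctrl MO set exceeded 0.190 TPM for eomes.L or 0.286 TPM for eomes.S. At 6.5 hpf in frog 2, eomes.S was already at 1.34, 1.19 and 1.09 TPM in Ctrl MO and at 2.12, 2.67 and 1.78 TPM in NI Ctrl embryos. Frog 2 thus held higher eomes at the same nominal age, a comparison of levels across tables that were made separately and for which no test was run. By 7.5 hpf eomes.S had reached 9.90, 9.47 and 8.07 TPM in Ctrl MO embryos of frog 1 and 29.4, 23.0 and 35.6 TPM in those of frog 2.

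From 5.5 to 7.5 hpf, eomes.L rose by 3.9 and eomes.S by 4.04 on the log2(TPM + 1) scale in Ctrl MO embryos in the pooled fit, while 14.2% of tested entries were called higher. The rises of eomes.L and eomes.S were 4.15 and 4.27 in NI Ctrl, 3.12 and 3.25 in Cxxc1 MO and 2.97 and 3.12 in Kmt2b MO embryos, where 13.9%, 13.1% and 13.6% of entries were called higher. All 8 were called, with limma adjusted p of at most 3.63e-09 for eomes.L. They kept their direction and call with each library centred on its median entry and with TPM rescaled to protein-coding entries. Eomes passed the filter through its 7.5 hpf values, since eomes.L was under 1 TPM in all 24 libraries at 5.5 hpf and in 22 of 24 at 6.5 hpf. An entry that low at first could be tested only if it was higher later, so these calls are no separate support for the rise. Between 5.5 and 6.5 hpf the pooled fit called a change only for eomes.S in NI Ctrl embryos (0.83, limma adjusted p = 0.0227, beside 7.62% of entries called higher). In frog 2 alone, limma called it in NI Ctrl (1.17 for eomes.L and 1.59 for eomes.S, beside 8.69% of entries called higher) and in Ctrl MO embryos (0.74, adjusted p = 0.00980, and 1.05, adjusted p = 0.00150, beside 8.81%). In the knockdown embryos of frog 2 limma did not call it, and eomes.S changed by 0.28 (adjusted p = 0.180) with Kmt2b MO and by 0.39 (adjusted p = 0.130) with Cxxc1 MO.

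**Figure D2:**
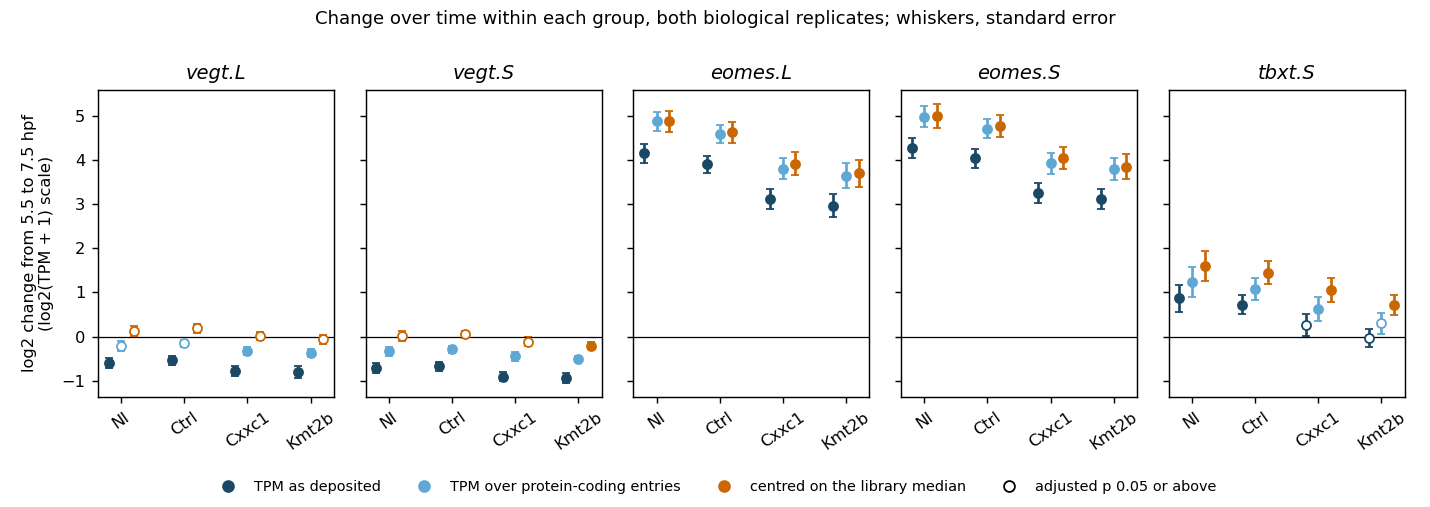
Change from 5.5 to 7.5 hpf on the log2(TPM + 1) scale in each of the 4 groups (pooled fit) for the 5 tested members under 3 scalings: TPM as deposited, each library centred on its median entry, and TPM rescaled to protein-coding entries. Whiskers are standard errors and filled symbols have an adjusted p under 0.05. The eomes entries rise under every scaling. The vegt changes are smaller and differ in sign between groups once libraries are centred, with vegt.S in Kmt2b MO still called lower.

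At 7.5 hpf the eomes transcripts were lower in the knockdown embryos. The sets of frog 1 had eomes.S at 4.11, 4.92 and 4.01 TPM in Kmt2b MO embryos, 47.5% of the Ctrl MO mean of 9.15 ± 0.958 TPM (SD, n = 3 sets). In Cxxc1 MO embryos of that frog it was at 4.56, 9.37 and 3.89 TPM, with a mean of 64.9% of Ctrl MO. All Kmt2b MO sets lay below all Ctrl MO sets, and 1 Cxxc1 MO set lay within the Ctrl MO range. In frog 2, eomes.S was at 13.5, 18.8 and 13.1 TPM in Kmt2b MO embryos (51.5% of Ctrl MO) and at 15.2, 11.9 and 17.6 TPM in Cxxc1 MO embryos (50.7%), where Ctrl MO averaged 29.3 ± 6.31 TPM (SD, n = 3 sets). There neither knockdown overlapped Ctrl MO. NI Ctrl embryos averaged 12.2 ± 2.08 and 31.3 ± 2.51 TPM in the 2 frogs (SD, n = 3 sets each), 133% and 107% of Ctrl MO.

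The L homeolog gave the same picture in its own values. For frog 1, eomes.L was at 8.76, 8.15 and 7.64 TPM in Ctrl MO, at 2.63, 5.63 and 3.19 TPM in Kmt2b MO and at 2.97, 8.39 and 3.93 TPM in Cxxc1 MO embryos. In frog 2 it was at 22.9, 21.0 and 28.8 TPM in Ctrl MO, at 9.21, 17.2 and 12.0 TPM in Kmt2b MO and at 12.4, 10.0 and 14.9 TPM in Cxxc1 MO embryos. Means were 46.6% and 52.8% of Ctrl MO in Kmt2b MO and 62.3% and 51.4% in Cxxc1 MO embryos. Set 2 of Cxxc1 MO in frog 1 was again the single knockdown set that overlapped Ctrl MO. NI Ctrl embryos were at 7.92, 11.0 and 15.1 TPM and at 23.7, 26.7 and 28.4 TPM.

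**Figure D3:**
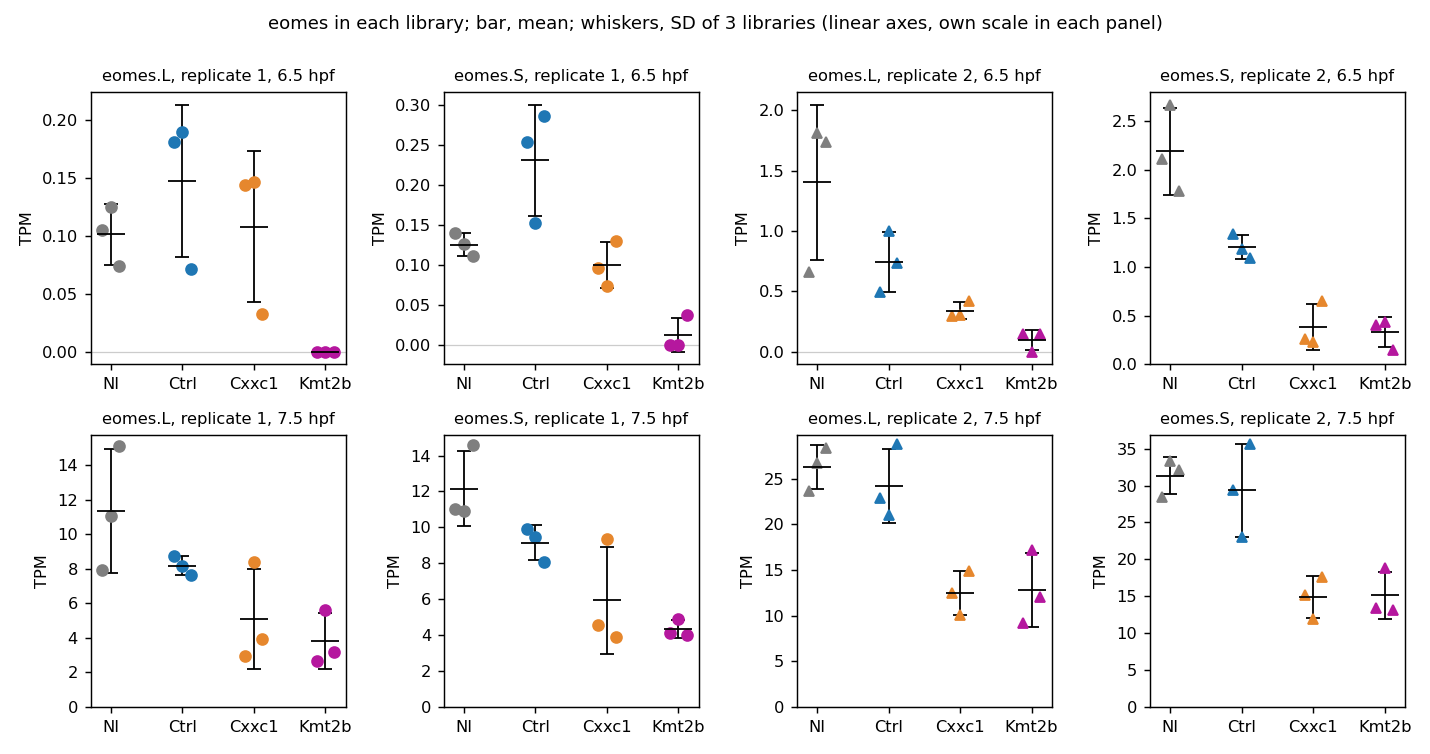
TPM of eomes.L and eomes.S at 6.5 and 7.5 hpf in the 4 groups of each frog, with a point per set of 3 embryos, a bar at the mean and whiskers of 1 SD (n = 3). At 7.5 hpf every Kmt2b MO set is below every Ctrl MO set of the same frog, and 1 Cxxc1 MO set of frog 1 is not.

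In the pooled limma fit of the 24 libraries of 7.5 hpf, Kmt2b MO embryos had lower eomes.S (log2 fold change -0.92, SE 0.15, adjusted p = 0.00155) and lower eomes.L (-0.94, SE 0.19, adjusted p = 0.00964) than Ctrl MO embryos. With tbxt.S, described further on, 3 of the 5 tested members were called lower, beside 0.752% of all tested entries (147 lower and 201 higher, or 266 lower and 874 higher with TPM rescaled to protein-coding entries). In Cxxc1 MO embryos 1 of the 5, eomes.S, was called lower (-0.78, SE 0.15, adjusted p = 0.0152), beside 0.235% of all tested entries, and eomes.L (-0.80, SE 0.19, adjusted p = 0.0642) missed the threshold. All 6 Kmt2b MO sets and 5 of 6 Cxxc1 MO sets lay below the range of their Ctrl MO sets for both homeologs. A two-sided exact permutation of the labels within frogs gave p = 0.005 for Kmt2b MO, the smallest that 400 arrangements allow, and p = 0.01 (eomes.S) and 0.015 (eomes.L) for Cxxc1 MO, unadjusted for 144 such tests (members and ratios between them). Non-overlap in both frogs in the lower direction was found in Kmt2b MO embryos for 3 of the 5 tested members, against 0.895% of all tested entries. Across the 5 tested members the median log2 fold change was -0.63 in Kmt2b MO and -0.49 in Cxxc1 MO embryos, where the median over all tested entries was -0.00 and -0.01.

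With 1 time point per fit, the eomes calls rested on pooling the frogs. Within a single frog limma then called 0 of 60 member comparisons of a knockdown with Ctrl MO, beside 0.149% over all entries in the same fits. Of the 60, 22 had an unadjusted p under 0.05, which cannot be set against that share because it counts adjusted calls. The share of all entries at an unadjusted p under 0.05 is not given here, so no excess can be read from the 22. For eomes.S in Kmt2b MO at 7.5 hpf the limma log2 fold change was -0.92 (adjusted p = 0.349) in frog 1 and -0.91 (adjusted p = 0.0760) in frog 2. For Cxxc1 MO the limma values were -0.63 (adjusted p = 0.784) and -0.93 (adjusted p = 0.135). Within a frog, calls appeared in fits of all time points (Kmt2b MO in both frogs, Cxxc1 MO in frog 2) and, in frog 2, with protein-coding entries or centred libraries. Over both frogs, each of these settings also raised the number of all tested entries called (counts are given under the dependence on processing). The matching counts within a single frog are not given here, so these calls cannot be read as particular to eomes. In the pooled fit, leaving out set 3 of Cxxc1 MO in frog 1 ended the eomes.S call (-0.71, limma adjusted p = 0.0521), as did a fit of only the 2 groups compared (-0.78, adjusted p = 0.184). Leaving out set 2 brought eomes.L under the threshold (-0.97, adjusted p = 0.00721). Every Kmt2b MO call of eomes was kept when each of the 12 libraries compared was left out in turn.

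**Figure D4:**
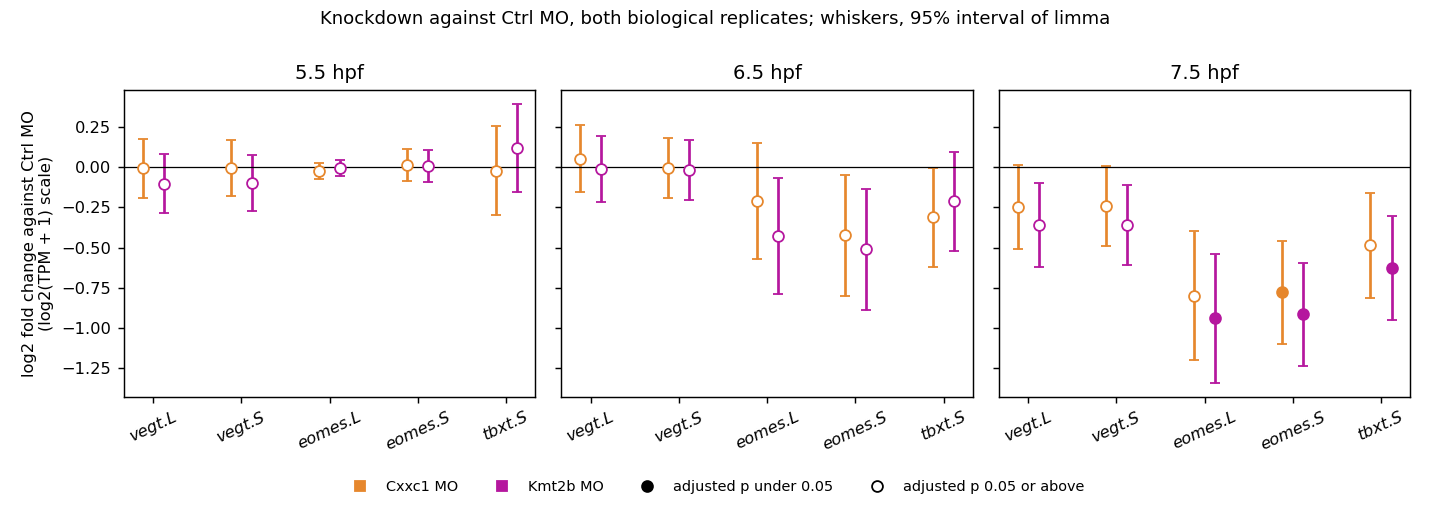
Log2 fold change of the 5 tested members in Cxxc1 MO and Kmt2b MO against Ctrl MO embryos at each time point (pooled fit, log2(TPM + 1) scale), with 95% intervals. Filled symbols have an adjusted p under 0.05; they are eomes.S in both knockdowns and eomes.L and tbxt.S in Kmt2b MO, all at 7.5 hpf.

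Comparison with the non-injected embryos gave larger differences for eomes. Against NI Ctrl at 7.5 hpf, the pooled limma fit gave a log2 fold change of eomes.S of -1.15 (adjusted p = 8.6e-05) in Kmt2b MO and -1.02 (adjusted p = 0.000672) in Cxxc1 MO embryos, beside 1.41% and 1.12% of entries called lower. For eomes.L the limma values were -1.19 (adjusted p = 0.000569) and -1.05 (adjusted p = 0.00399). The control morpholino itself gave no call for any tested member (0 of 45 comparisons of Ctrl MO with NI Ctrl by limma, beside 0.0143% of all entries called). Of these 45, 1 had an unadjusted p under 0.05, a count given without the matching share of all entries. At 7.5 hpf Ctrl MO differed from NI Ctrl by -0.24 (95% interval -0.56 to 0.08) for eomes.S and by -0.25 (-0.65 to 0.15) for eomes.L.

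Kmt2b MO and Cxxc1 MO embryos were also compared with each other. Limma called 0 of 45 member comparisons of Kmt2b MO with Cxxc1 MO, beside 0.00441% of all entries called in these fits. Of the 45, 2 had an unadjusted p under 0.05, again without the matching share of all entries. At 7.5 hpf the difference was -0.14 for eomes.S (95% interval -0.46 to 0.18), for eomes.L (-0.54 to 0.26) and for tbxt.S (-0.47 to 0.18). Intervals of this width leave room for a difference between the knockdowns in either direction.

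Lower eomes values in the knockdown sets than in Ctrl MO were seen from 6.5 hpf on, except for eomes.L in Cxxc1 MO embryos of frog 1. At 6.5 hpf the pooled fit on the log2(TPM + 1) scale called none of these differences. At 5.5 hpf eomes was too near 0 in every group for a difference to show. Over both frogs, no member differed from Ctrl MO at 5.5 hpf by more than 0.12 on the log2 scale in either knockdown. None was called, beside 0.379% (Cxxc1 MO) and 0.711% (Kmt2b MO) of all tested entries. Single frogs differed by more, since Kmt2b MO gave -0.26 for vegt.L and -0.23 for vegt.S in frog 1, with all sets below all Ctrl MO sets. The share of all entries with such non-overlap within a single frog was not counted, and the 2 homeologs share reads. In frog 2 these were 0.05 and 0.04, and tbxt.S had 0.19. At 6.5 hpf in frog 2, eomes.S was at 0.400, 0.429 and 0.148 TPM in Kmt2b MO (27.0% of Ctrl MO) and at 0.255, 0.231 and 0.654 TPM in Cxxc1 MO embryos (31.5%). There eomes.L was at 0.494, 0.997 and 0.738 TPM in Ctrl MO, at 0.143, 0 and 0.148 TPM in Kmt2b MO and at 0.292, 0.308 and 0.423 TPM in Cxxc1 MO embryos. All knockdown sets lay below all Ctrl MO sets for both homeologs. For eomes.S in this frog, all Ctrl MO sets in turn lay below all NI Ctrl sets. That difference was -0.52 on the log2(TPM + 1) scale, beside -0.74 (Kmt2b MO) and -0.69 (Cxxc1 MO) against Ctrl MO. In frog 1, with Ctrl MO at 0.253, 0.152 and 0.286 TPM, eomes.S was listed at 0 in 2 Kmt2b MO sets and at 0.0364 TPM in the other, and at 0.0961, 0.0733 and 0.130 TPM in Cxxc1 MO embryos. Again no knockdown set reached the Ctrl MO range for eomes.S. The NI Ctrl sets of that frog, at 0.140, 0.125 and 0.111 TPM, lay below it as well, and Cxxc1 MO overlapped them. For eomes.L in frog 1, Ctrl MO was at 0.181, 0.190 and 0.0716 TPM. Cxxc1 MO, at 0.144, 0.147 and 0.0326 TPM, overlapped these sets, and Kmt2b MO was listed at 0 throughout.

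Most of these values are below the pseudocount of 1, so the log2(TPM + 1) scale compresses ratios between them. The size of a fold change at this level depends on the pseudocount, and the error of such values is unknown. On the log2(TPM + 1) scale the 6.5 hpf differences of eomes.S were -0.51 (adjusted p = 0.195) for Kmt2b MO and -0.42 (adjusted p = 0.312) for Cxxc1 MO in the pooled limma fit. Of the 5 tested members 0 were called, beside 2.25% (Kmt2b MO) and 1% (Cxxc1 MO) of all tested entries. In each knockdown 2 of the 5 had an unadjusted p under 0.05, and the matching share of all entries is not given here. With a pseudocount of 0.1, limma called Kmt2b MO for eomes.S (-1.62, adjusted p = 0.0192) and eomes.L (-1.72, adjusted p = 0.0300), beside 0.906% of entries lower, while eomes.S in Cxxc1 MO was not (-1.13, adjusted p = 0.171). Exact permutation within frogs gave p = 0.005 for eomes.S in both knockdowns and for eomes.L in Kmt2b MO at 6.5 hpf. Non-overlap in both frogs in the lower direction was found for 2 of the 5 tested members in Kmt2b MO (1.08% of all tested entries) and for 1 of 5 in Cxxc1 MO (1.57%). For eomes.L the 6.5 hpf Kmt2b MO sets also lay below the Cxxc1 MO sets in both frogs (exact permutation p = 0.005, mean difference -0.22), as did 0.0665% of all tested entries.

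The change of the knockdown difference over time was also fitted. In a limma fit of all 72 libraries, the Kmt2b MO difference from Ctrl MO changed between 5.5 and 7.5 hpf by -0.92 (SE 0.20, adjusted p = 0.0236) for eomes.S and -0.93 (SE 0.21, adjusted p = 0.0382) for eomes.L, beside 0.148% of tested entries with such an interaction. Since eomes was at or near 0 in every group at 5.5 hpf, these values restate the difference at 7.5 hpf. For Cxxc1 MO the limma interactions were -0.79 (adjusted p = 0.258) and -0.78 (adjusted p = 0.272), and 0.00512% of entries were called. For vegt.L and vegt.S the Kmt2b MO interaction was -0.26 each, and for tbxt.S it was -0.75 (limma adjusted p = 0.240), none of them called. No member had a called interaction of knockdown with frog, but hardly any entry did. For Kmt2b MO at 6.5 and 7.5 hpf limma called 0 of 19544 entries, so the lack of calls does not show that the frogs agreed. Among the members the unadjusted limma p went down to 0.0321 (tbxt.S in Cxxc1 MO at 6.5 hpf).

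The homeologs of eomes contributed similar amounts. At 7.5 hpf the L homeolog gave 46.5% of eomes TPM in frog 1 (39.0% to 53.4% over 12 libraries) and 45.5% in frog 2 (40.6% to 47.7%). Summed eomes TPM at 7.5 hpf came to 4.75 ± 0.612% of summed vegt TPM in Ctrl MO embryos of frog 1 (SD, n = 3 sets) and to 14.6 ± 1.18% in those of frog 2. The corresponding means were 2.61% and 11.3% in Kmt2b MO, 3.21% and 9.43% in Cxxc1 MO and 6.84% and 19.7% in NI Ctrl embryos. At 6.5 hpf in frog 2 they were 0.443% in Ctrl MO, 0.762% in NI Ctrl, 0.0880% in Kmt2b MO and 0.151% in Cxxc1 MO embryos. These ratios combine the values above and are given as a description. At 7.5 hpf the control morpholino went with a lower ratio as well, since all Ctrl MO sets lay below all NI Ctrl sets in both frogs (4.40% to 5.46% against 6.52% to 7.27% in frog 1, 13.3% to 15.7% against 18.3% to 22.3% in frog 2). Kmt2b MO, at 8.37% to 16.2%, overlapped Ctrl MO in frog 2, and Cxxc1 MO, at 2.43% to 4.60%, overlapped it in frog 1.

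The tbxt homeologs differed in level. The entry tbxt.L stayed between 0 and 0.952 TPM in all 72 libraries and was not tested across genes. The entry tbxt.S was present before eomes appeared, at 1.27 to 2.24 TPM at 5.5 hpf in frog 1 and at 0.803 to 2.54 TPM in frog 2. In frog 1 it had no called rise, with 0.913 to 2.1 TPM at 7.5 hpf. In frog 2 the 12 libraries of 7.5 hpf held 2.31 to 8.09 TPM, with NI Ctrl at 7.18, 8.09 and 7.45 TPM and Ctrl MO at 5.34, 6.05 and 7.38 TPM. The L homeolog gave 7.38% of tbxt TPM there (2.38% to 10.8%).

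Over time, limma called tbxt.S higher from 5.5 to 7.5 hpf in Ctrl MO (0.73, adjusted p = 0.00470) and NI Ctrl embryos (0.87, adjusted p = 0.0111) in the pooled fit. Within frog 2, limma gave 1.45 in Ctrl MO (adjusted p = 4.23e-06, beside 13.3% of entries called higher) and 1.89 in NI Ctrl embryos (beside 13%), against 0.00 and -0.15 in frog 1. In Cxxc1 MO embryos limma gave 0.26 (adjusted p = 0.311) in the pooled fit and 0.88 (adjusted p = 0.00572, beside 12.7%) in frog 2. In Kmt2b MO embryos the pooled limma fit gave -0.02 (adjusted p = 0.927), and its direction flipped to 0.71 (adjusted p = 0.00922) with each library centred on its median entry. Within a frog, limma gave for Kmt2b MO -0.43 (adjusted p = 0.0453, beside 69.5% of entries called lower) in frog 1 and 0.39 (adjusted p = 0.135) in frog 2. With TPM rescaled to protein-coding entries, limma gave -0.38 (adjusted p = 0.0686) and 0.99 (adjusted p = 0.000370) there. The values of frog 1 also depended on the scaling, since with centred libraries tbxt.S changed there by 0.50 in Ctrl MO, 0.36 in NI Ctrl, 0.20 in Cxxc1 MO and 0.067 in Kmt2b MO, none called, against 2.34, 2.78, 1.84 and 1.3 in frog 2, all called.

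At 7.5 hpf tbxt.S was lower in Kmt2b MO embryos. In frog 1 it was at 1.14, 1.2 and 1.02 TPM there and at 1.35, 1.93 and 2.1 TPM in Ctrl MO embryos. In frog 2 it was at 2.94, 2.31 and 3.75 TPM in Kmt2b MO, 47.9% of the Ctrl MO mean of 6.26 ± 1.04 TPM (SD, n = 3 sets). The groups did not overlap in either frog. The log2 fold change was -0.63 (SE 0.16, adjusted p = 0.0386, pooled limma fit), with an exact permutation p of 0.005. This call was narrow, since it held in only 3 of 12 fits that left out a library and limma's adjusted p reached 0.111. It was lost without set 1 of Kmt2b MO or set 2 or 3 of Ctrl MO in frog 1, and without any of the Kmt2b MO or Ctrl MO sets of frog 2. In Cxxc1 MO embryos tbxt.S was at 0.913, 1.91 and 1.07 TPM in frog 1 and at 3.28, 2.93 and 4.46 TPM in frog 2. That difference was not called (-0.49, SE 0.16, limma adjusted p = 0.274), with 1 set overlapping Ctrl MO in frog 1.

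The tbx6 entries remained scarce. In 69 of 72 libraries tbx6.L was under 1 TPM. At 7.5 hpf in frog 2 it was at 0.979, 1.09 and 1.16 TPM in NI Ctrl, 1.29, 0.805 and 0.966 TPM in Ctrl MO, 0.659, 0.482 and 0.893 TPM in Cxxc1 MO and 0.398, 0.151 and 0.145 TPM in Kmt2b MO embryos. The Kmt2b MO mean in that frog was 22.7% of Ctrl MO, at values of 0.398 TPM and less, where the error is unknown. In frog 1 all 12 libraries lay between 0.0606 and 0.626 TPM at 7.5 hpf, and Kmt2b MO overlapped Ctrl MO. Exact permutation over both frogs gave p = 0.015 for Kmt2b MO against Ctrl MO at 7.5 hpf (mean difference -0.44 on the log2(TPM + 1) scale) and p = 0.235 for Cxxc1 MO (-0.13), unadjusted. The entry tbx6.S was at most 0.282 TPM and listed at 0 in 28 of 72 libraries.

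Further T-box genes and the genes around this pathway were read from lists, each in the pooled fit of 7.5 hpf, where 0.235% of all tested entries were called lower and 0.302% higher in Cxxc1 MO, and 0.752% and 1.03% in Kmt2b MO. Of 23 entries of other T-box genes, 2 were tested and none was called, namely mga.L (-0.04 in Cxxc1 MO and -0.12 in Kmt2b MO), which encodes a Max-binding T-box protein, and tbx6r.L (0.37 and 0.44). At 6.5 hpf tbx6r.L was called higher in Kmt2b MO (0.86, limma adjusted p = 0.00427), beside 1.46% of all tested entries, and had 0.41 (adjusted p = 0.276) in Cxxc1 MO. Of 41 Nodal signalling entries, 34 were tested, with 2 lower and 1 higher in Cxxc1 MO embryos and 5 lower and 1 higher in those injected with Kmt2b MO. Their median log2 fold changes were -0.03 and -0.09, and the 4 most abundant (foxh1.L, dand5.L, dand5.S and tdgf1.3.L, a transcription factor, Nodal antagonists and a co-receptor) were not called. Of 95 entries of other mesoderm and endoderm genes, 43 were tested, of which 9 fell in Cxxc1 MO, 26 fell in Kmt2b MO and none rose, with medians of -0.60 and -0.62 beside -0.01 and -0.00 over all tested entries. At 6.5 hpf 4 and 12 of them were lower, beside 0.43% and 0.788% of all tested entries, and at 5.5 hpf none.

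The most abundant of these mesoderm and endoderm entries had fold changes nearer 0 than those of eomes, a comparison that was not tested. The homeobox gene not.L had a limma log2 fold change of -0.42 with either morpholino (adjusted p = 0.143 for Cxxc1 MO, 0.0793 for Kmt2b MO). The entry bix1.1.L, a homeobox gene known as a VegT target, had -0.46 (limma adjusted p = 0.242) and -0.45 (adjusted p = 0.142), and none of these was called. Its relative bix1.3.L was lower in Kmt2b MO (-0.62, limma adjusted p = 0.0366) and had -0.59 (adjusted p = 0.106) in Cxxc1 MO. The ventral homeobox gene ventx2.1.S was lower in both (-0.70, limma adjusted p = 0.0143, and -0.58, adjusted p = 0.0276). Of 46 ectoderm entries 29 were tested, with 2 lower and 1 higher in Cxxc1 MO, 5 lower and 1 higher in Kmt2b MO and medians of -0.07 and -0.00, and sox3.L, sox3.S, gmnn.L and gmnn.S were not called. All 21 entries of the histone H3 methyltransferase complexes in the list were tested and none was called in either knockdown. The morpholinos block translation, so transcript levels do not check the knockdown, and cxxc1.S differed by -0.01 (limma adjusted p = 1.00) in Cxxc1 MO embryos at 7.5 hpf.

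Likeness of pattern was measured as Pearson's r of mean log2(TPM + 1) over the 12 groups of a table, as a description across shared libraries. For eomes.L the 5 most alike entries were foxa4.S, gsc.L, id3.S, nodal2.L and ventx1.1.L, with an r of at least 0.9949 in both tables. For eomes.S they included nodal2.L, foxa4.S, ventx1.1.L and chrd.1.L, at 0.9938 or more. The vegt entries went with mob3a.S, grip2.L, cnppd1.L, XB5852426.L and dazl.L (vegt.L, led by mob3a.S at 0.982 and 0.981 in frogs 1 and 2) and with bicc1.L, bicc1.S, cnppd1.L, pheta1.L and zfyve26.L (vegt.S, led by bicc1.L at 0.990 and 0.991). Among the members, eomes.L and eomes.S had an r of 0.999 and 0.998, vegt.L and vegt.S 0.983 and 0.995, and eomes.S and vegt.S -0.90 and -0.91. The entry tbxt.S did not keep a partner, since its r with eomes.S was -0.66 in frog 1 and 0.92 in frog 2. Its 5 most alike entries, stox1.S, znf268.L, srsf2.L, atg16l1.L and dusp1.L, came down to 0.600 in 1 of the tables.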

How the data were processed

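Reads were processed by the authors, who pseudoaligned them with kallisto 0.48 to Xenbase transcripts of Xenopus laevis, summed the isoforms of each gene in R 4.3.2 and deposited TPM in 1 table per biological replicate (frog). Read counts cannot be had from TPM, so depth is unknown and no counting interval is given. The authors' own test used DESeq2 1.42.1 on counts not used here. Library sums were 984999 to 996289 TPM (frog 1) and 987187 to 996020 TPM (frog 2). In all, 83 names were repeated (2323 entries), none of them a member.

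Samples were grouped by the labels. Entries that averaged 1 TPM or more across the 36 libraries of each table were put on the log2(TPM + 1) scale and fitted by limma 3.58.1 under R 4.3.3 (lmFit, then eBayes with a mean-variance trend), with adjusted p-values (Benjamini-Hochberg) over all tested entries and a threshold of 0.05. The libraries of a time point were fitted together, 12 of a frog (8 residual degrees of freedom) or 24 of both with the frog as a covariate (19). Time changes were fitted within a group. Exact two-sided permutation over sets used 400 arrangements. The scripts were tested on simulated data.

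Members and lists were chosen with earlier results of these data known. The text names all 8 members, up to 4 tested entries per list by the highest mean TPM, and the 5 entries most alike to each tested member, except that an entry alike to eomes.S is not reported here. Coordinates come from a RefSeq table of the authors' assembly, Xenopus_laevis_v10.1, to which 38926 entries matched by name. Alternatives were a pseudocount of 0.1, no filter, centring on the median entry, protein-coding entries alone, only the groups compared, all time points, NI Ctrl as control, the set number as a block and leaving out each library. Entries for kmt2b and for cxxc1.L are not analysed here.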

Additional observations from a re-analysis of the deposited data

Results flagged for a closer look

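The Kmt2b MO difference from Ctrl MO changed between 5.5 and 7.5 hpf by -0.93 for eomes.L (adjusted p = 0.0382) and by -0.92 for eomes.S (adjusted p = 0.0236) in the limma interaction of time and knockdown, and at 5.5 hpf both entries were near 0 in every group, so that these values restate the difference at 7.5 hpf.

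In 5 further cases the sets of the 2 frogs moved in opposite directions from the mean of the group compared. All 3 sets of a frog went one way and all 3 of the other frog the opposite way. The cases came from a scan of the 5 tested members over every knockdown, control and time comparison. How many of all entries meet this rule was not counted, so the 5 cases do not show that the frogs differed. For the Kmt2b MO difference from Ctrl MO at 6.5 hpf, vegt.L gave -0.16 in frog 1 and 0.14 in frog 2, a difference of 0.29, and vegt.S gave -0.15 and 0.12, a difference of 0.27. The interaction with frog was not called by limma for either, nor for any of the 19544 tested entries. For Ctrl MO against NI Ctrl at 6.5 hpf, eomes.S gave 0.13 in frog 1, where all values were below 0.3 TPM, and -0.52 in frog 2. Limma did not call this difference of -0.65 (unadjusted p = 0.0120), nor that of any of the 19544 tested entries.

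From 5.5 to 7.5 hpf, tbxt.S changed by -0.15 in frog 1 and by 1.89 in frog 2 in NI Ctrl embryos, a difference of 2.04, and by -0.43 and 0.39 in Kmt2b MO embryos, a difference of 0.81. The difference of these time changes between frogs was not tested. With each library centred on its median entry the changes of both frogs were positive, at 0.36 and 2.78 in NI Ctrl and 0.067 and 1.3 in Kmt2b MO embryos.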

How the results depend on the processing

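Kmt2b MO calls of both eomes homeologs at 7.5 hpf in the pooled fit of both frogs held under every alternative run. For Cxxc1 MO, eomes.L passed the threshold with centring (-0.79), the set number as a block (-0.80), all time points (-0.80), protein-coding entries (-0.81) and NI Ctrl as control (-1.05), and eomes.S missed it with only the 2 groups compared (-0.78). Leaving out 1 library gave -0.97 to -0.70 (eomes.L) and -0.93 to -0.70 (eomes.S) in Cxxc1 MO, -1.05 to -0.84 and -1.0 to -0.84 in Kmt2b MO and -0.69 to -0.53 for tbxt.S in Kmt2b MO, which without the filter stayed at -0.63 but missed the threshold. At 6.5 hpf Kmt2b MO was called with a pseudocount of 0.1 (eomes.L -1.72, eomes.S -1.62), and for eomes.S with all time points (-0.51) and against NI Ctrl (-0.71). In frog 1, all time points called Kmt2b MO at 7.5 hpf (eomes.L -0.98, eomes.S -0.92). In frog 2 more calls came with all time points (eomes.L and eomes.S -0.91 and -0.93 in Cxxc1 MO, -0.90 and -0.91 in Kmt2b MO), protein-coding entries (-0.87 and -0.89, -0.83 and -0.84) and centring (eomes.S -0.91 in Cxxc1 MO, eomes.L -0.92 and eomes.S -0.93 in Kmt2b MO). For vegt in Kmt2b MO at 7.5 hpf, all time points (-0.36 for both homeologs), protein-coding entries (-0.32 for both) and centring (vegt.S -0.37) passed the threshold. The change of vegt from 5.5 to 7.5 hpf reversed with centring in NI Ctrl (vegt.L 0.13, vegt.S 0.016), Ctrl MO (0.19 and 0.052) and, for vegt.L, Cxxc1 MO (0.017), and lost its call for vegt.L in Kmt2b MO (-0.060) and vegt.S in Cxxc1 MO (-0.11) and, with protein-coding entries, for vegt.L in NI Ctrl (-0.21) and Ctrl MO (-0.15). For tbxt.S it became a called rise in Cxxc1 MO with centring (1.05) and protein-coding entries (0.63), and reversed to 0.71 in Kmt2b MO with centring. In the pooled fit (counts within a single frog are not given), 105 of all tested entries were called in Cxxc1 MO at 7.5 hpf. There centring gave 479, only the 2 groups 6, all time points 325 and protein-coding entries 381. In Kmt2b MO 348 were called, against 1016, 827 and 1140 with centring, all time points and protein-coding entries. Leaving out 1 library gave 70 to 136 and 208 to 382 (without set 2 of Ctrl MO in frog 2, 227, and without Kmt2b MO set 1 of frog 1 or sets 1 and 3 of frog 2, 224, 208 and 216). The causes of these shifts were not tested.

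Set numbers did not pair the libraries, since deviations of equally numbered sets had r of -0.21 to 0.31 (median -0.00, 108 pairs). With the set number as a block, 2 of 90 member fold changes crossed the threshold, eomes.L in Cxxc1 MO (above) and tbxt.S in Kmt2b MO of frog 2 at 7.5 hpf (-0.87, adjusted p = 0.0431 by limma). TPM without counts leaves the error of values under 1 TPM unknown, which limits tbxt.L, tbx6 and early eomes, and reads shared by homeologs limit the L and S split.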
